A study of Homo sapiens with 68 samples.

Results

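The comparison concerned hnRNPA1 binding sites mapped by TLC-CLIP after more or less digestion with RNase. The low RNase group (hnRNPA1_50k_lowRNase) held 2 libraries made with 0.005 U of RNase, and the medium RNase group (hnRNPA1_50k_mediumRNase) held 2 libraries made with 0.025 U. The source of each library was 50000 cells of HEK293T, an established line of human embryonic kidney origin. Cells were crosslinked with UV-C light, and the protein was pulled down with the antibody 4B10. The members are every peak and every gene identifier in these 4 peak lists, out of 68 lists in 34 groups. They hold 1791824 of the 15800601 peaks deposited for all libraries, or 11.3%. The labels give no genotype or treatment that differs between the groups other than the RNase amount, and they do not say whether replicates came from separate cultures. The p-values therefore measure the spread between these libraries, which may be technical.

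hnRNPA1 is an abundant nuclear RNA-binding protein of the hnRNP family, with a pair of RNA recognition motifs and a glycine-rich tail. It coats nascent transcripts, is known for repressing the inclusion of alternative exons, and prefers RNA that contains the letters UAG. In CLIP, UV light joins protein to RNA, RNase trims the RNA that the protein does not shield, and the remaining fragments are immunoprecipitated and sequenced. The RNase amount therefore sets how long the recovered fragments are, and it is titrated in most CLIP protocols. The comparison addresses what a larger RNase amount does to the list of sites.

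The unit of the lists is the peak, a stretch of the transcript on which the peak caller found more reads than its background allows. Each peak carries a gene identifier, a strand, a p-value, a number read here as its reads, and a short inner interval, at most 4 nt long, near its summit. The number of sequenced reads per library was not given in the sources used here, so depth is unknown and the length of a list stands beside each result that it can move. The identifiers could not be paired with gene symbols here, so 2 identifiers per direction are given and sites are given by position in hg19.

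The medium RNase lists were shorter, and their peaks were narrower. The low RNase libraries held 515303 and 501950 peaks, against 365593 and 408978 in the medium RNase libraries. The groups did not overlap, and the mean fell from 508627 ± 9442 to 387286 ± 30678 peaks (SD, n = 2 each). Peaks lay in 14532 and 14528 genes at low RNase and in 13836 and 14275 genes at medium RNase. The median peak was 61 and 60 nt wide at low RNase and 52 and 51 nt wide at medium RNase. The change sat in the wide peaks. The 90th percentile of width was 106 and 104 nt against 85 and 84 nt, whereas the 10th percentile was 27 and 27 nt against 27 and 26 nt. Peaks wider than 100 nt made up 12.4% and 11.4% of the low RNase lists but 4.70% and 4.47% of the medium RNase lists. An exact two-sided permutation test of 2 against 2 libraries has 3 distinct splits and cannot go below p = 0.333, which was its value for peak number, median width and the share of wide peaks.

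**Figure D1:**
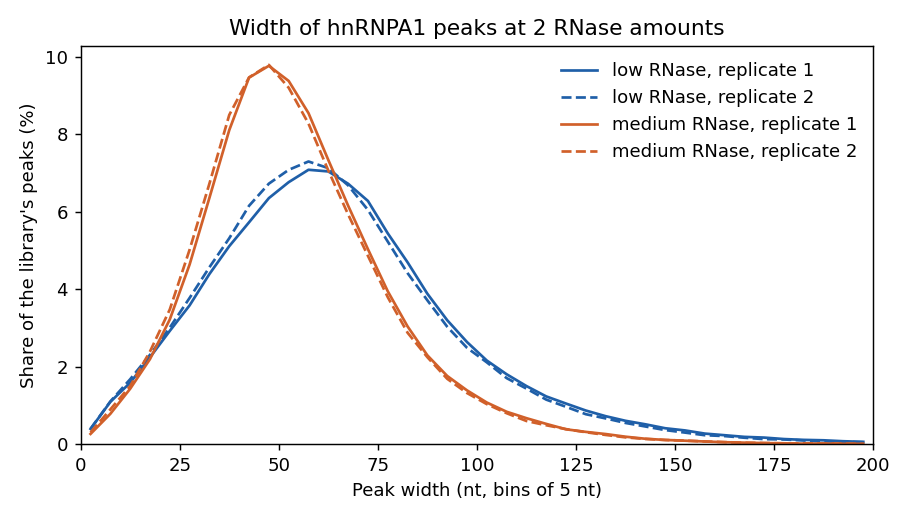
Share of each library's peaks (vertical axis, percent) by peak width (horizontal axis, nt, in bins of 5 nt up to 200 nt) for the 2 low RNase and the 2 medium RNase libraries. The 2 curves of each group lie close together, and the medium RNase curves peak at a narrower width and fall to fewer peaks above 100 nt.

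Depth can move both numbers, and reads per peak also differed. The median peak carried 10 and 9 reads at low RNase and 8 and 9 reads at medium RNase, which overlap, while the most covered peak carried 64320 and 57922 reads against 19918 and 21176. Among peaks with a deposited p-value below 1e-05, the median width was 76 and 75 nt against 62 and 61 nt, so the stronger peaks differed by 14 nt and all peaks by 9 nt.

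To follow the same peak through both amounts, peaks of the 4 lists that overlapped by at least 1 nt on the same strand were joined to sites. Of 857747 sites, 86962 had exactly 1 peak in each of the 4 lists, and these are called shared sites below. Their mean width was 75.4 and 73.9 nt in the low RNase libraries and 60.6 and 60.7 nt in the medium RNase libraries. Neither group reached into the range of the other. The mean fell by 14 nt, from 74.7 ± 1.02 to 60.7 ± 0.0662 nt (SD, n = 2 each), a distance far larger than the spread between replicates. On average over both replicates, 72.6% of the shared sites were narrower at medium RNase and 26.6% were wider.

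Both edges moved inwards. Measured along the strand from the mean centre of the 4 peaks, the 5′ edge lay at -36.7 and -35.9 nt at low RNase and at -30.3 and -30.4 nt at medium RNase. The 3′ edge lay at 37.6 and 37.1 nt at low RNase and at 29.3 and 29.3 nt at medium RNase. The 5′ edge thus moved downstream by 5.95 nt and the 3′ edge upstream by 8.05 nt. The libraries of the groups did not overlap at either edge.

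Because the 3′ edge moved further, the centre shifted slightly upstream. The mean centre lay at 0.44 and 0.61 nt at low RNase and at -0.48 and -0.56 nt at medium RNase, a difference of -1.05 nt. The inner interval, the peak caller's estimate of the summit, lay at 0.93 and 1.13 nt at low RNase and at -0.31 and -0.39 nt at medium RNase, a difference of -1.38 nt. The libraries of the groups did not overlap for either measure. The position of the inner interval depended on the strand, so only its difference between amounts is read here. At low RNase it lay at 0.19 and 0.34 nt on the plus strand and at 1.73 and 1.99 nt on the minus strand. The difference between amounts was -1.40 nt on the plus strand and -1.35 nt on the minus strand. These shifts are small beside the scatter of single sites. The inner intervals of the 2 low RNase libraries differed by a median of 9 nt at the same site, those of the 2 medium RNase libraries by 6 nt, and those of 1 library of each by 8 to 9 nt.

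Agreement on the summit was closer between the medium RNase libraries. Their inner intervals lay within 5 nt of each other at 47.6% of the shared sites. The low RNase libraries met this limit at 34.8% of the sites, and pairs of 1 low and 1 medium RNase library at 34.3% to 35.7%. The 5′ edges told the same order, with a median difference of 8 nt within the medium RNase pair, 12 nt within the low RNase pair and 12 to 13 nt across amounts. With 1 pair per amount, no test of this order was made. Peaks at these sites were also narrower at medium RNase, with a mean of 60.7 nt against 74.7 nt. Narrower peaks leave less room for summits to differ, and the part of width in this order was not tested.

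The narrowing was larger at sites with more reads. When the shared sites were ranked by mean reads and divided into 4 groups of equal size, the mean width fell by 7.20 nt in the group with the fewest reads. It fell by 12.6 nt and 16.4 nt in the next groups and by 19.8 nt in the group with the most reads. In that top group the low RNase libraries averaged 88.8 and 87.3 nt and the medium RNase libraries 68.1 and 68.5 nt. Width rose with reads at both amounts, and the low and medium RNase libraries did not overlap in any of the 4 groups.

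**Figure D2:**
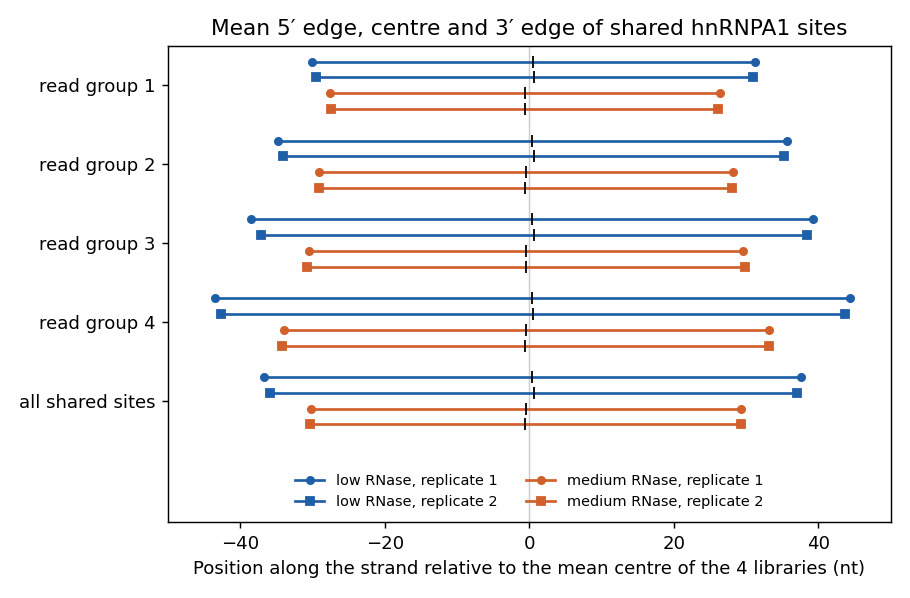
Mean position in nt of the 5′ edge (left end), centre (black tick) and 3′ edge (right end) of the 86962 shared sites in each library, in 4 groups of equal size by mean reads and over all sites. At all shared sites the low RNase bars run from about -36.7 or -35.9 to 37.6 or 37.1 nt and the medium RNase bars from about -30.3 or -30.4 to 29.3 nt, and the gap between the groups widens from read group 1 to read group 4.

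No single site passed the test for width. With limma on log2 width and Benjamini-Hochberg adjustment over the 86962 shared sites, 0 sites had an adjusted p under 0.05, and the smallest adjusted p was 0.213. At an unadjusted p under 0.05, limma gave 13743 narrower sites (15.8% of those tested) and 1389 wider sites (1.60%). Both medium RNase widths were below both low RNase widths at 37310 sites (42.9%) and above both at 7660 sites (8.81%). A site that missed the threshold with 2 libraries per amount is not shown to have kept its width.

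The sites with the smallest p-values in each direction, among those with at least 20 reads in every library, did not pass the test and are given as examples. The site at chr12:133272106-133272256 (plus strand) was 130 and 141 nt wide at low RNase and 27 and 26 nt wide at medium RNase, with 51 and 48 reads against 23 and 27. The site at chr7:157031481-157031655 (plus strand) was 141 and 168 nt wide at low RNase and 44 and 37 nt wide at medium RNase, with 85 and 100 reads against 23 and 24. At both, reads and width were lower in both medium RNase libraries. In the other direction, the site at chr20:2635727-2635828 (plus strand) was 43 and 52 nt wide at low RNase and 97 and 102 nt wide at medium RNase, with 28 and 27 reads against 30 and 38. The site at chr6:136605097-136605220 (minus strand) was 50 and 52 nt wide at low RNase and 124 and 91 nt wide at medium RNase, with 22 and 23 reads against 36 and 26. At both, width and reads were higher in both medium RNase libraries. Of the 5 narrower sites with the smallest p, 4 had fewer reads in both medium RNase libraries than in either low RNase library. All 5 such wider sites had more. Over all shared sites the median was also lower at medium RNase, with 15 and 15 reads at low RNase against 11 and 12. How many of all shared sites had either pattern was not counted, so these examples show no link between width and reads. The part of read number in the width was not tested.

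Libraries made with 0.005 U but without gel purification (PAGE) give a second view of the low amount. At the 27988 sites with 1 peak in all 8 crosslinked hnRNPA1 libraries of 50000 cells, mean widths were 85.8 and 86.0 nt without PAGE and 83.3 and 84.4 nt without PAGE but with the RecJ step. The low RNase libraries averaged 80.5 and 79.0 nt and the medium RNase libraries 64.1 and 64.2 nt at the same sites. The 6 libraries made with 0.005 U thus lay between 79.0 and 86.0 nt, all above the 2 made with 0.025 U.

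hnRNPc, another hnRNP that binds uridine-rich RNA in introns, was also profiled at both amounts. Its low RNase replicate 1 holds 3268 peaks and was left out of this value. At 52817 sites shared by the other 3 hnRNPc libraries, the mean width was 64.3 nt at low RNase and 63.4 and 62.3 nt at medium RNase, a difference of -1.42 nt. Over all peaks of these libraries the median width was 58 nt at low RNase and 55 and 52 nt at medium RNase. The low RNase list was the shortest, with 214849 peaks against 304672 and 366417, the reverse of the order for hnRNPA1. The part of list length was not tested. With 1 low RNase library there is no spread for that group, and the difference between the proteins was not tested.

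The peak lists also differed in which sites they held. Of the 857747 sites, 121196 had a peak in all 4 lists and are called kept. A further 74139 sites had a peak in both low RNase lists and in neither medium RNase list, and are called lost. The reverse held for 32938 gained sites. Lost sites were 28.3% of the 262414 sites found in both low RNase lists, and gained sites were 16.6% of the 198573 sites found in both medium RNase lists. As a measure of noise in the lists, 79459 sites had a peak in exactly 1 list of each amount, with 17149 to 22782 sites for each of the 4 such pairs.

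The excess of lost over gained sites moved with list length. At the deposited length there were 2.25 lost sites per gained site. With the 300000 strongest peaks of each library there were 38024 lost and 36024 gained sites, or 1.06 per gained site. Among peaks with p below 1e-05 the ratio was 2.77. A site lost or gained is thus a site absent from a list of a given length, and absence of binding was not measured.

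Sites with few reads made up most of both classes. The median peak in a lost site carried 9 and 9 reads in the low RNase libraries, and the median peak in a kept site 17 and 16 reads in the same libraries. Of the sites found in both low RNase lists with 4 to 5 reads in the shallower one, 57.7% had no medium RNase peak. This share was 41.2% at 6 to 9 reads, 19.8% at 10 to 19 reads, 6.28% at 20 to 49 reads and 2.44% at 50 reads or more. For sites found in both medium RNase lists, the share with no low RNase peak was 32.5%, 21.8%, 9.51%, 3.19% and 2.52% in the same read classes. It was lower than the share of low RNase sites in every class below 50 reads, and close to it at 50 reads or more.

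**Figure D3:**
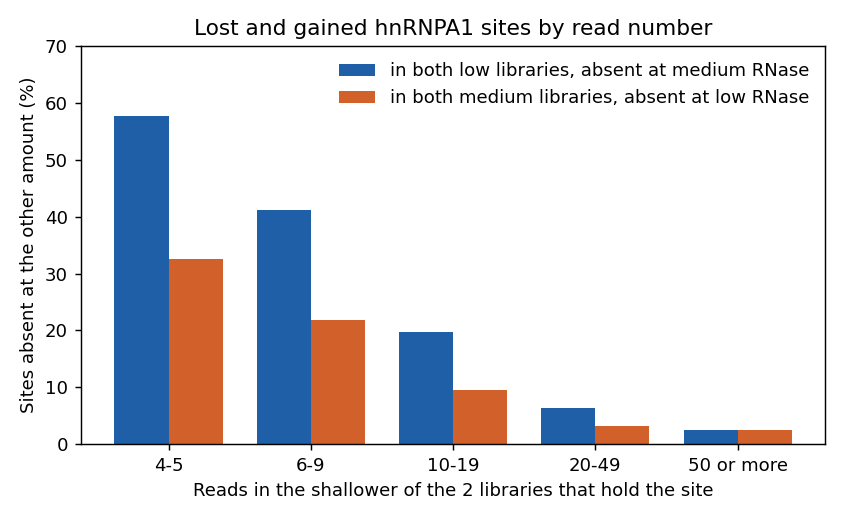
Percent of sites absent from both libraries of the other amount (vertical axis), by reads in the shallower of the 2 libraries that hold the site (horizontal axis), for sites in both low RNase and sites in both medium RNase libraries. The bars fall from 57.7% and 32.5% at 4 to 5 reads to 2.44% and 2.52% at 50 reads or more.

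Some lost and gained sites lay beside a peak of the other amount. A medium RNase peak lay within 50 nt of 12.5% of lost sites, and a low RNase peak lay within 50 nt of 19.1% of gained sites. Kept sites with 1 peak in each low RNase list and several in each medium RNase list numbered 3331, against 1222 with several at low and 1 at medium RNase.

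The 8 lost sites with the most reads, 1 per gene, were of several kinds. A medium RNase peak lay within 50 nt of 4 of them. The 4 hnRNPA1 libraries without PAGE all had a peak at 7 of them and none had one at the other. That exception, at chrM:3151-3182 (plus strand), had the most reads of the 8, with 2625 and 1742 at low RNase, and no medium RNase peak within 50 nt. The site at chr11:65266824-65266850 (plus strand) held 439 and 438 reads at low RNase, and a medium RNase peak lay within 50 nt. The libraries without PAGE held 1590 and 1162 reads there, and those with RecJ 2274 and 1050. The site at chrX:107969065-107969119 (minus strand) held 244 and 219 reads at low RNase, with no medium RNase peak within 50 nt, and 393, 462, 369 and 512 reads in the 4 libraries without PAGE. It was thus listed in 6 libraries of 0.005 U and in neither of 0.025 U, whereas the mitochondrial site was listed only in the low RNase pair among these 8 libraries.

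Of the 8 gained sites with the most reads, 4 had a low RNase peak within 50 nt. The 4 libraries without PAGE all had a peak at 4 of them, and some of these libraries had one at the other 4. The gained site with the most reads, at chrM:2107-2170 (plus strand), held 1205 and 1111 reads at medium RNase, with a low RNase peak within 50 nt and 38052 to 52284 reads in the libraries without PAGE. The site at chrX:107974245-107974309 (minus strand) held 178 and 151 reads at medium RNase and had no low RNase peak within 50 nt. It had 171 reads in 1 of the 4 libraries without PAGE and no peak in the others. The site at chr9:126029773-126029928 (minus strand) held 107 and 110 reads at medium RNase and 100, 71, 76 and 75 reads in the 4 libraries without PAGE, although both low RNase lists lacked it.

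The most covered kept site lay at chr6:52860642-52860745 (plus strand). It held 64320 and 57922 reads at low RNase and 19918 and 21176 at medium RNase, with 48846 to 56361 in the libraries without PAGE. The site at chr17:8076844-8076907 (minus strand) held 9732 and 8172 reads at low RNase and 9850 and 10500 at medium RNase. Among the other kept sites with the most reads, those at chrM:2258-2308, chrX:73071520-73071680 and chr16:67355589-67355665 had fewer reads in both medium RNase libraries than in either low RNase library. At chr17:8076789-8076843 the groups overlapped. The strongest sites thus did not share a direction in raw reads, but most of these were lower at medium RNase.

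Libraries that took no part in defining the classes showed that lost sites were found again more often than gained sites at 0.005 U. The 4 crosslinked hnRNPA1 libraries without PAGE overlapped 46.3% ± 2.39 of lost sites (SD, n = 4 libraries), 32.5% ± 1.37 of gained sites and 81.6% ± 0.881 of kept sites. The same libraries overlapped 14%, 13.4% and 21.1% of positions 1000 nt away. For single libraries the lost sites ranged from 43.1% to 48.9% and the gained sites from 30.9% to 33.6%, with no overlap between classes. The order was kept among sites with 10 reads in the shallower library, at 52.8% of lost and 38.2% of gained sites, a setting added after the data were seen.

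Libraries without UV light, which hold RNA that copurifies without a crosslink, overlapped smaller shares of each class than the crosslinked libraries without PAGE. With PAGE, the libraries without UV overlapped 11.4% of lost, 10.7% of gained and 39.1% of kept sites. At positions 1000 nt away they overlapped 3.91%, 4.33% and 7.18%. Without PAGE they overlapped 11.4% of lost, 16.2% of gained and 41.3% of kept sites (4.55%, 5.24% and 8.05% away). The libraries without UV were made with 0.005 U and held 146915 to 196278 peaks. The crosslinked libraries without PAGE held 450313 to 523402 peaks, and the part of list length was not tested.

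hnRNPc peaks lay on gained and lost sites to different degrees. The 2 hnRNPc medium RNase libraries overlapped 2.51% and 3.41% of lost sites, below the 8.22% and 9.44% at positions 1000 nt away. They overlapped 13.8% and 18.2% of gained sites, above the 8.57% and 9.74% found 1000 nt away. The hnRNPc libraries without PAGE, made with 0.005 U, gave the same order with 8.50% of lost sites (12.6% away) and 15.5% of gained sites (11.5% away). The hnRNPc low RNase replicate 2 gave 6.92% of lost (6.59% away) and 11.1% of gained sites (6.85% away). In each of these 5 libraries the gained sites were overlapped more often than the lost sites.

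Other proteins showed the same order. The low RNase libraries of hnRNPI, the polypyrimidine tract-binding protein, overlapped 5.38% of lost and 10.2% of gained sites (6.56% and 7.14% away). Those of RBFOX2, a splicing factor that binds GCAUG, overlapped 7.36% of lost and 13.7% of gained sites (5.23% and 7.04% away). The part of read number or of transcript level in these overlaps was not tested.

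**Figure D4:**
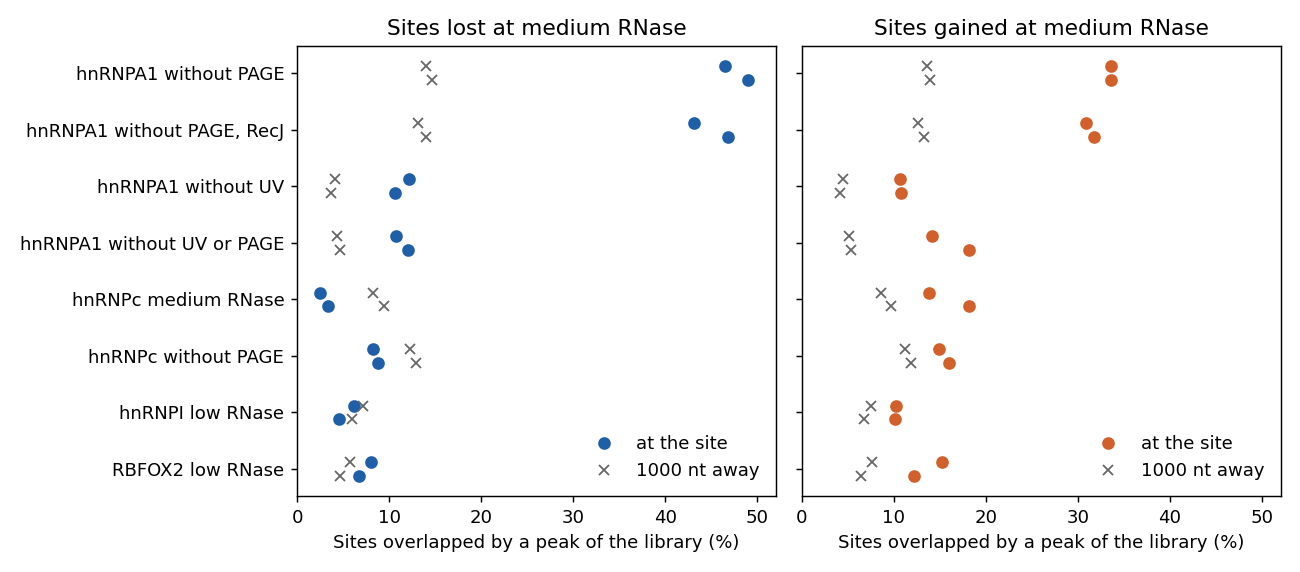
Percent of lost sites (left) and gained sites (right) overlapped by a peak of each of 2 libraries per group (filled points) and the same 1000 nt away (crosses). The crosslinked hnRNPA1 libraries without PAGE overlap more of the lost sites. The hnRNPc, hnRNPI and RBFOX2 libraries overlap more of the gained sites, as do the hnRNPA1 libraries without UV or PAGE.

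Reads at shared sites also moved relative to each other. The median shared site held 15 and 15 reads at low RNase and 11 and 12 at medium RNase. After each library was centred on its median, limma with Benjamini-Hochberg adjustment called 4998 of 86962 sites higher (5.75%) and 2396 lower (2.76%) at medium RNase. The median log2 difference over all these sites was still 0.0675 after centring. Its part in the excess of higher over lower sites was not tested. These calls rested on both medium RNase libraries, since without either of them limma called 0 sites. Leaving out medium RNase replicate 1 left 7472 higher and 5919 lower sites at an unadjusted p under 0.05, and leaving out replicate 2 left 7249 and 5457. Without centring limma also called 0 sites.

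Per gene, peaks were counted in each list, scaled to 100000 peaks of the list after adding 1, and compared on the log2 scale. The added 1 understates large changes of genes with few peaks. It also weighs more in the shorter medium RNase lists, which moves genes with few peaks slightly upwards. The mean log2 difference over the genes tested was 0.00913 with 1 added and 0.00144 with 0.5 added. Of 7901 genes with a mean of at least 10 peaks, 1373 had more peaks at medium RNase (17.4%) and 1250 had fewer (15.8%), by limma with Benjamini-Hochberg adjusted p under 0.05. With the 300000 strongest peaks of each library, limma called 0 of 6372 genes, and 889 higher and 822 lower genes had an unadjusted p under 0.05. Of the 2262 called genes that were tested there, 1946 kept the sign of their difference. Without low RNase replicate 1 the counts were 778 and 536, and without scaling to list length they were 81 and 3163. The number of genes called thus changed with how lists of unequal length were compared. Which genes were called also changed. With reads in place of peaks, 911 higher and 899 lower genes were called both ways and 59 were called in opposite directions. Of the 2623 called genes, 2394 kept their sign there. With peaks of p below 1e-05, 1698 called genes were tested, 496 higher and 219 lower genes were called again, and 7 turned.

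The 2 largest rises were on chromosome 19. The gene ENSG00000175221.9 had 7 and 4 peaks at low RNase and 13 and 18 at medium RNase, and 5 to 13 in the libraries without PAGE. Its log2 difference was 1.76 ± 0.30 (SE; limma, Benjamini-Hochberg adjusted p = 0.000126). The gene ENSG00000105325.9 had 11 and 8 peaks at low RNase and 22 and 26 at medium RNase, with a log2 difference of 1.66 ± 0.22 (limma, Benjamini-Hochberg adjusted p = 1.21e-05). The medium RNase libraries were the higher ones for both genes although their lists were shorter. Both genes averaged under 10 peaks at low RNase and passed the filter through their medium RNase counts.

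The 2 largest falls were on chromosomes 12 and 3. The gene ENSG00000184613.6 had 23 and 22 peaks at low RNase, 2 and 7 at medium RNase and 17 to 25 in the libraries without PAGE. Its log2 difference was -1.87 ± 0.32 (limma, Benjamini-Hochberg adjusted p = 0.000161). The gene ENSG00000121879.3 had 31 and 25 peaks at low RNase, 4 and 7 at medium RNase and 28 to 33 in the libraries without PAGE. Its log2 difference was -1.79 ± 0.25 (limma, Benjamini-Hochberg adjusted p = 1.82e-05). Both genes averaged under 10 peaks at medium RNase and passed the filter through their low RNase counts. The 4 genes were chosen among called genes whose groups did not overlap. Such groups were found for 5398 of all 7901 genes tested, and for 2778 of the 5278 genes not called. Of the 12 called genes with the largest rises (1.27 to 1.76), 4 were on chromosome 19, and the peaks of the median one spanned 16.3 kb. The 12 with the largest falls (-1.87 to -1.47) lay on 7 chromosomes, and the peaks of the median one spanned 82.3 kb. In both sets, genes passed the filter of a mean of 10 peaks through the group where they were high.

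Genes that rose were shorter and more densely bound than genes that fell. The span of a gene's peaks, measured in the hnRNPA1 libraries without PAGE, had a median of 33.3 kb for higher genes, 120 kb for lower genes and 47.7 kb for all genes tested. In the same libraries higher genes had a median of 1.15 peaks per kb with 17 reads in the median peak, and lower genes had 0.584 peaks per kb with 8 reads. RBFOX2 peaks numbered 61.5 per 100 hnRNPA1 peaks in the median higher gene, 12.9 in the median lower gene and 26.4 over all genes, all in libraries without PAGE. This order was not particular to RBFOX2. The same ratio was 99.6, 80.8 and 92.0 for hnRNPc without PAGE. For hnRNPA1 peaks without UV it was 41.7, 25.4 and 31.4. For hnRNPI without PAGE it went the other way, with 57.7, 74.5 and 61.9.

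With spans taken from hnRNPI libraries, which are independent of hnRNPA1 lists, the median log2 difference fell from 0.30 for genes under 10 kb to -0.22 for genes over 200 kb. Of the genes over 200 kb, 47.6% were called lower and 8.04% higher, and of those under 10 kb 2.47% and 24.3%. Genes over 200 kb held 30.4% and 30.2% of the peaks of all binned genes at low RNase and 28.2% and 28.4% at medium RNase, a small shift with no overlap between groups. With the 300000 strongest peaks of each library the gradient was smaller, from 0.08 to -0.06 over fewer genes. With peaks of p below 1e-05 it ran from 0.33 to -0.14.

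Chromosomes differed in the same way, and the 4 described here were picked after their values were seen. On chromosome 19, 40.2% of 381 tested genes were called higher and 1.84% lower, and on chromosome 22, 43.1% of 216 and 1.85%. On chromosome 4, 5.78% of 294 genes were called higher and 31.0% lower, and on chromosome 18, 5.59% of 143 and 30.1%. Chromosome 19 held 2.46% and 2.51% of the peaks at low RNase and 3.15% and 3.20% at medium RNase, against 2.54% to 2.72% in the libraries without PAGE. The medium RNase libraries were thus the highest of the 8. The chromosome also had 1.08 lost sites per gained site, against 2.25 over all chromosomes.

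The difference by chromosome was seen within span classes. Among genes of 20 to 50 kb, the median log2 difference was 0.36 for the 204 genes of chromosomes 19 and 22, -0.17 for the 111 genes of chromosomes 4 and 18, and 0.02 for the 1889 genes elsewhere. With the 300000 strongest peaks of each library the median was 0.32 on chromosome 19 and 0.20 on chromosome 22, -0.13 on chromosome 4 and -0.05 on chromosome 18, against -0.03 over all genes tested. Chromosome 18 thus lay near the median of all genes in that setting. When reads replaced peaks the medians were 0.61, 0.33, -0.22 and -0.13 in the same order, against -0.06 over all genes tested. These settings for chromosomes and spans were added after the data were seen.

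**Figure D5:**
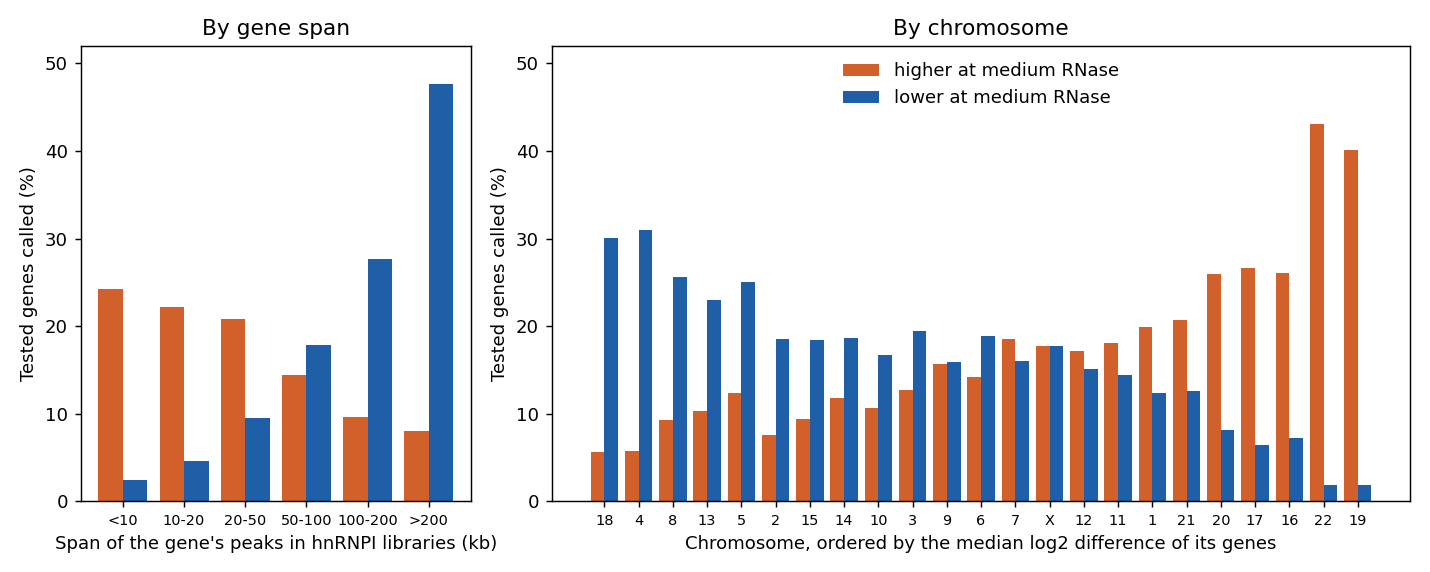
Percent of tested genes called higher or lower at medium RNase (limma, Benjamini-Hochberg adjusted p under 0.05), by span of the gene's hnRNPI peaks in kb (left) and by chromosome (right). Calls of lower genes rise from 2.47% below 10 kb to 47.6% above 200 kb, and chromosomes 22 and 19 have the largest shares of higher genes at 43.1% and 40.2%.

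Few genes were listed at only 1 amount. Of 16398 genes with a peak in any of the 4 lists, 12460 had one in all 4. A further 436 had peaks in both low RNase lists only and 244 in both medium RNase lists only, and 477 had a peak in exactly 1 list of each amount. Genes listed only at low RNase held at most 10 peaks in a library, and those listed only at medium RNase at most 6. With the 300000 strongest peaks of each library the order turned, with 152 genes at low RNase only and 513 at medium RNase only.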

How the data were processed

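TLC-CLIP libraries of hnRNPA1 were compared at 2 RNase amounts. Reads were aligned to hg19 with STAR 2.7.3a and deduplicated with UMI-tools 1.0.1, per the submitters' processing notes; the peak caller's settings were not given in the sources used here. The deposited lists give a p-value per peak and, as other values, peak and inner-interval coordinates; the last number of the peak name was read as reads. Members, gene groups and tests were chosen with earlier results of these data known. Fits used limma 3.58.1 in R 4.3.3 with Benjamini-Hochberg adjustment over all features tested; tables used pandas in Python. A gene needed a mean of 10 peaks over the 4 libraries. Genes were named by the largest difference among called genes whose groups did not overlap (2 per direction), and sites by reads or by the smallest width p. Identical peaks listed under overlapping genes count for each gene. The fits were tested on simulated data, in which the width fit missed nearly all single-site changes of 1 log2 unit. Of the gene identifiers, 0 could be paired with a symbol, so planned gene lists were not reported, and no motif was searched. Alternatives changed the p threshold, list length, filter, scaling, unit, overlap and libraries.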

Additional observations from a re-analysis of the deposited data

Results flagged for a closer look

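The number of peaks moved in opposite directions for hnRNPA1 and hnRNPc. From low to medium RNase the mean log2 peak number changed by -0.40 for hnRNPA1, where both medium RNase libraries were below both low RNase libraries. For hnRNPc it changed by 3.66 with both low RNase libraries and by 0.64 without low RNase replicate 1, which holds 3268 peaks, and both medium RNase libraries were above both low RNase libraries. The difference between the proteins was not tested, and depth is unknown for both.

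The 5′ edge of shared sites also moved in opposite directions. It moved downstream by 5.95 nt for hnRNPA1 and changed by -1.40 nt, upstream, for hnRNPc. There 1 low RNase library was used, with a shorter list than either medium RNase library. That difference was not tested either.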

How the results depend on the processing

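Counts moved with list length, threshold, scaling and the libraries used, and the cause was not tested except where stated. With the 300000 strongest peaks of each library, limma called 0 genes higher and 0 lower, against 889 and 822 at an unadjusted p under 0.05. The genes listed only at low RNase numbered 152 and those only at medium RNase 513, so the low minus medium difference turned from 192 to -361. Lost sites numbered 38024, which left an excess of 2000 over gained sites. The libraries without PAGE overlapped 49.8% of lost, 29.1% of gained and 82.8% of kept sites. With peaks of p below 1e-05 only, where fewer genes and sites were tested, limma called 646 genes higher and 550 lower, and 2684 sites with more reads. That threshold left 40150 lost, 14497 gained and 50033 kept sites, an excess of 25653 lost sites, and a low minus medium difference of 90 genes. The overlaps were then 55.6% of lost, 36.4% of gained and 87.2% of kept sites. At 10 reads in the shallower library they were 52.8%, 38.2% and 82.6%.

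Without scaling to list length, limma called 81 genes higher and 3163 lower. Without centring it called 0 sites with more and 0 with fewer reads, against 4433 and 17577 at an unadjusted p under 0.05.

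Leaving out each library in turn gave 778 to 1251 higher and 536 to 1253 lower genes. It gave 0 to 4350 sites with more reads and 0 to 1732 with fewer, the value of 0 coming without either medium RNase library. A class then needs only the 1 library left of that amount, so lost sites ranged from 103430 to 225855, gained sites from 54816 to 117345, and their difference from -13915, without medium RNase replicate 1, to 170356.

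Libraries with the same replicate number did not deviate together (correlation of deviations over genes -0.03, over site widths 0.00). These values gave no sign that the number pairs the libraries, but cannot show that they were prepared unpaired. With the number as a replicate block, limma called 1368 genes higher and 1280 lower, and the mean log2 width difference of -0.29 was the same by construction. The block moved no other count of calls by over 1.5 times. Peak number, peak width, site width and all 4 positions kept their direction under every alternative run for them, and the 4 named genes passed the test under each in which they were tested. None of the 4 had enough peaks to be tested with equal list length or with p below 1e-05.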

Other observations

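Peaks on the mitochondrial chromosome fell in number more than the lists did. The low RNase libraries held 74 and 71 such peaks and the medium RNase libraries 27 and 30. As a share of the list this was 0.0144% and 0.0141% against 0.00739% and 0.00734%, with 0.0300% to 0.0324% in the hnRNPA1 libraries without PAGE. The groups did not overlap, and the 2 numbers per group allow no test below p = 0.333 (exact two-sided permutation test).

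Genes were also divided into 4 groups of equal size by hnRNPc peaks per 100 hnRNPA1 peaks, both counted in libraries without PAGE. From the lowest to the highest ratio, 15.5%, 13.5%, 16.3% and 23.1% were called higher at medium RNase and 22.2%, 20.8%, 13.3% and 8.10% lower. The median log2 difference was -0.07, -0.08, 0.00 and 0.10, so mainly the group with the highest ratio stood apart. The median span was 51.5, 59.4, 50.9 and 41.6 kb, lowest in that group, and the part of span was not tested.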
